A study of Mus musculus with 12 samples.

Results

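The mitochondrially encoded transcripts were taken as every gene whose annotated symbol starts with mt-. This rule found 37 of the 50600 gene identifiers in the files: 13 protein-coding genes, 2 rRNA genes and 22 tRNA genes, all on the mitochondrial chromosome. Polyadenylated RNA had been sequenced from CD8+ T cells, the cytotoxic lymphocytes, of lymph nodes. The cells came from male C57BL/6J mice aged 8 weeks that were held in constant darkness, with no genotype or treatment beyond that. Over 2 days, tissue was sampled at 6 circadian times (CT): 2, 6, 10, 14, 18 and 22 h. Each time and day gave 1 library, 12 in all. The series asks which transcripts cycle over the day. How many mice were pooled in a sample is not labelled, and every p-value below reflects the spread between samples alone, which may be technical.

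Mammalian mitochondrial DNA is a small circle that is transcribed from both strands into long precursors. Enzymes cut the tRNAs out of these precursors, which frees the mRNAs and rRNAs that lie between them, and most mRNAs then receive a short poly(A) tail. The mRNAs encode core subunits of the respiratory chain complexes I, III and IV and of the ATP synthase, while nuclear genes supply the polymerase, the nucleases and all other proteins of the system.

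The libraries held between 24689964 and 33497078 counts on genes. The defining genes of the labelled cell type were present throughout: Cd8a stood at 1406 ± 99.6 CPM (counts scaled to the library's total; SD, n = 12), Cd8b1 at 1119 ± 94.1 and Cd3e at 552 ± 38.03. Markers of other cells were present too. The summed level of 15 monocyte and macrophage markers, all 15 of them over 1 CPM on average, ran from 841 to 2208 CPM, that of 8 dendritic cell markers from 368 to 719 CPM and that of 8 B cell markers from 149 to 295 CPM. The sums were 58.5 to 165 CPM for 4 NK cell markers, 139 to 190 CPM for 7 stromal and endothelial markers, 73.2 to 117 CPM for 5 CD4 T cell markers, 12.6 to 104 CPM for 6 neutrophil markers and 0.467 to 2.96 CPM for 4 erythroid markers. In RNA from a mixture of cells, fewer cells of a type and less RNA per cell cannot be told apart. The pair of CT2 libraries differed most from each other. Chi-square divided by its degrees of freedom was 40.2 there, over 15238 genes, against 3.07 to 10.6 at the other times. Genes with few counts in a pair were left out.

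The 13 protein-coding genes held 2.47% ± 0.219 of all counts on genes (SD, n = 12). The lowest library was CT14 of day 1 with 2.22% and the highest was CT2 of day 1 with 3.03%. The 2 rRNA genes held 0.195% to 0.372%, and the 22 tRNA genes together received 218 to 434 counts in a library. These are shares of reads that mapped to 1 place in the genome and to the gene's own strand. Several members share their sequence with the nuclear genome, where a read can have more than 1 place.

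Nuclear copies of mitochondrial DNA are known from many genomes, and annotated pseudogenes of this kind matched 9 of the 13 protein-coding genes over at least 1 window of 50 bases. All windows of mt-Co2 were shared with another annotated transcript, as were 99.9% of those of mt-Co3, 99.5% of mt-Atp6, 98.8% of mt-Nd4l and 98.0% of mt-Nd3. The shares were 62.2% for mt-Nd4, 51.1% for mt-Co1, 8.19% for mt-Nd2 and 7.61% for mt-Nd5. No window of mt-Nd1, mt-Nd6, mt-Cytb, mt-Atp8, mt-Rnr1 or any tRNA gene was shared, and 1.04% of those of mt-Rnr2 were. A stretch of mt-Co1 is printed with its copies to show how alike they are. It gives bases 1101 to 1160 of mt-Co1 (chrM:6428-6487, plus strand), the same stretch of the pseudogene Gm29216 (chr1:24616091-24616150, minus strand) and of the pseudogene Gm13340 (chr2:22588488-22588547, minus strand), from the GENCODE M21 transcripts of GRCm38. The capital marks the base that differs, C1134T, counted from the first base of mt-Co1.
mt-Co1: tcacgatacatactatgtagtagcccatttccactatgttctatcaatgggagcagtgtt
Gm29216: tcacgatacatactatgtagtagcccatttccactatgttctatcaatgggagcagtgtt
Gm13340: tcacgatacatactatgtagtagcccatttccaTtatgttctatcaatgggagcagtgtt
Over this stretch a read could be told from Gm13340 by 1 base and could not be told from Gm29216 at all.

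The copies on chromosome 1 lie side by side on the minus strand, in the order of the mitochondrial genes. Gm28661 matched mt-Co2 in 681 of 681 aligned bases (chr1:24614885-24615565), Gm10925 matched mt-Atp6 in 678 of 678 (chr1:24613974-24614651) and Gm28437 matched mt-Co3 in 783 of 783 (chr1:24613189-24613971). Further along, Gm28438 matched mt-Nd3 in 344 of 345 bases, Gm10222 matched mt-Nd4l in 294 of 294 and Gm28439 matched mt-Nd4 in 876 of 876. Gm29216 covered the last part of mt-Co1, with 486 of 492 bases the same, and Gm13340 on chromosome 2 all of mt-Co1, with 1508 of 1545. Of these copies, Gm28661, Gm28437, Gm28438, Gm10222 and Gm28439 were chosen for mention after their values were seen. mt-Atp8 lies between mt-Co2 and mt-Atp6. Only annotated transcripts were compared, and the sequence of chromosome 1 between Gm28661 and Gm10925 was not read here, so whether it holds a copy of mt-Atp8 was not tested.

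Among the protein-coding genes, mt-Nd1, mt-Nd6 and mt-Cytb, which shared no window, each had a similar level by both deposited methods, as did both rRNA genes, whereas those inside the copied block did not. The first method counts uniquely mapped reads. The second, RSEM, shares out a read that fits several transcripts and gives expected counts, which need not be whole. mt-Co2 had 403 to 614 unique counts per library, against RSEM expected counts of 41057 to 61771. RSEM placed still more on the copy Gm28661, a mean of 99474 per library, which was 65.7% of the sum of both. Gm10925 received 78.0% of its sum with mt-Atp6, Gm28438 67.8% with mt-Nd3, Gm28437 50.9% with mt-Co3, Gm10222 48.1% with mt-Nd4l, Gm29216 11.3% with mt-Co1 and Gm28439 0.25% with mt-Nd4. Reads that are the same in both places cannot be told apart, so how much of each sum came from the mitochondrion is not measured by these files. Unique counts were 0.33% of the sum of both for mt-Co2, 0.22% for mt-Co3 and 0.17% for mt-Atp6, and 67.2% for mt-Co1. They were 101.4% for mt-Nd1, 102% for mt-Cytb and 111% for mt-Nd6.

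**Figure D1:**
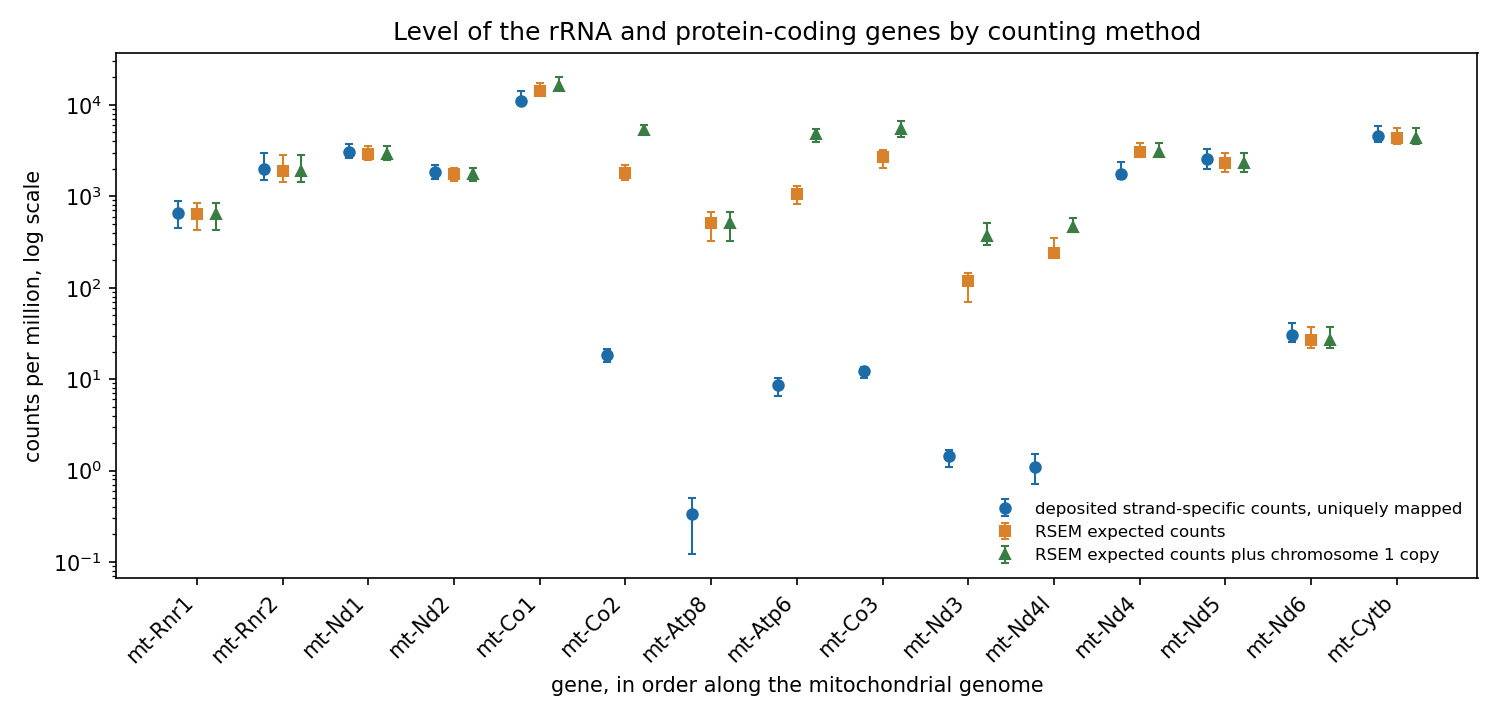
Level in CPM on a log scale for the 2 rRNA and 13 protein-coding genes in genome order, as deposited unique counts, as RSEM expected counts and as RSEM counts with the chromosome 1 copy added. Points are means over 12 libraries and bars run from the lowest to the highest library; mt-Co2 stood at 18.2 CPM by unique counts and at 5304 CPM with the copy added, while mt-Nd1 stood at 3019 and 2900 CPM.

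mt-Atp8 was also nearly empty in the unique counts, with 3 to 14 per library against a mean of 14474 RSEM expected counts (507 CPM). It is the shortest protein-coding member, with 204 bases, and its end overlaps the start of mt-Atp6 by 43 bases. The ends of both genes are shown because a read over the overlap belongs to both. They are the last 80 bases of mt-Atp8 (chrM:7890-7969) and the first 80 of mt-Atp6 (chrM:7927-8006), both on the plus strand and from GENCODE M21, with the overlap in capitals.
mt-Atp8: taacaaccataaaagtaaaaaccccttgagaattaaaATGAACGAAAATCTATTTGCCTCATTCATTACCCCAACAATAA
mt-Atp6: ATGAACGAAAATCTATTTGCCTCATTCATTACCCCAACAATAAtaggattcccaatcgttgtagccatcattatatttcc
mt-Nd4l and mt-Nd4 overlap by 7 bases and mt-Atp6 and mt-Co3 by 1. Counts of such pairs are uncertain where the counting had to choose between the 2 genes.

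Levels of different genes were compared per length, in TPM, RSEM's measure scaled to effective transcript length and to a fixed sum per library. For mt-Co1 (1545 bases) the effective length was 137 to 143 bases under the full length. RSEM counts of the chromosome 1 copy were added to the member, and the sum was scaled to the member's effective length. This shortening weighs most on short genes. The ranks of mt-Atp8 (204 bases), mt-Nd4l (297) and mt-Nd3 (348) therefore depend on it and can differ per full length. mt-Co1, the catalytic core of complex IV, was the highest with 14503 ± 712 TPM (SD, n = 12). The other complex IV subunits followed closely, mt-Co2 with 12472 ± 640 TPM and mt-Co3 with 10753 ± 1046 TPM, with the ATP synthase gene mt-Atp6 between them at 11490 ± 1219 TPM. The 12 libraries of mt-Co1 (13639 to 15903 TPM) lay above all 12 of mt-Co2 (11531 to 13279 TPM), whereas those of mt-Atp6 (9483 to 13202 TPM) overlapped both mt-Co2 and mt-Co3. mt-Atp8 had the widest spread, 5670 to 12063 TPM around a mean of 8833.

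Below these stood mt-Cytb, the complex III subunit cytochrome b, at 5486 ± 351 TPM, and the 7 complex I genes. Among them mt-Nd1 reached 4538 ± 395 TPM, mt-Nd4l 3745 ± 321, mt-Nd4 3171 ± 243, mt-Nd2 2477 ± 231, mt-Nd3 2250 ± 296 and mt-Nd5 1757 ± 172 TPM. The lowest library of mt-Cytb, 4895 TPM, lay below the highest of mt-Nd1, 5119 TPM, so these neighbours overlapped. Further down, mt-Nd1 overlapped mt-Nd4l and mt-Nd4l overlapped mt-Nd4. The lowest library of mt-Nd4, 2829 TPM, lay above the highest of mt-Nd2, 2792 TPM. mt-Nd2, mt-Nd3 and mt-Nd5 again overlapped in turn. mt-Nd6 was the lowest protein-coding gene by far, 89.96 ± 13.5 TPM with a highest library of 126 TPM. How far the poly(A) selection set the level of mt-Nd6 was not tested. The rRNA genes, in this poly(A)-selected RNA, stood at 1692 ± 230 TPM for mt-Rnr2 and 997 ± 167 TPM for mt-Rnr1.

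mt-Nd6 is the only protein-coding gene on the minus strand (chrM:13552-14070), and its locus held many reads from the other strand. Reads on its own strand numbered 686 to 1090 per library. Reads on the opposite strand numbered 18325 to 24669, which was 95.3% to 96.8% of both strands together, with no overlap between the ranges. At the plus-strand genes the opposite strand was minor, with means of 0.54% at mt-Co1, 1.06% at mt-Nd1, 1.27% at mt-Cytb and 2.83% at mt-Nd5. Over all genes the opposite strand held 5.42% to 6.73% of the reads. If the columns had been read without strand, mt-Nd6 would have had 15421 to 20068 counts. mt-Nd6 and its plus-strand neighbour mt-Nd5 (chrM:11742-13565) end tail to tail. Their last 60 bases are printed, each 5′ to 3′ on its own strand, mt-Nd5 from chrM:13506-13565 and mt-Nd6 from chrM:13552-13611 of GENCODE M21. Capitals mark the 14 bases that both genes share as opposite strands of the same DNA.
mt-Nd5: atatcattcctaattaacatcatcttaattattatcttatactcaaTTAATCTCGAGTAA
mt-Nd6: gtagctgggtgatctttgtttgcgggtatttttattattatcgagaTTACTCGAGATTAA

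The same contrast held for the tRNA genes. Of the 22, 14 lie on the plus strand and 8 on the minus strand, 7 had no count in any library and 7 were counted in all 12. For a gene with no count, 3 counts of the total is the limit that a count of 0 allows, 0.0896 to 0.122 CPM, for counting error only. The libraries were made by poly(A) selection, so the levels of tRNA, rRNA and mRNA describe what that selection retained. All 8 minus-strand tRNA genes had more counts on the opposite strand than on their own. At mt-Tp, which carries proline, 7 to 18 counts stood on the gene's strand and 676 to 1123 on the opposite strand, and at mt-Te, which carries glutamate, 0 to 9 stood against 135 to 280. The plus-strand genes mt-Tw and mt-Tt, which carry tryptophan and threonine, had 68 to 192 and 76 to 196 counts and only 0 to 4 and 2 to 9 on the opposite strand. They were the highest tRNA genes, at 5.31 ± 1.23 and 4.27 ± 1.33 CPM (SD, n = 12). The genes of mt-Tt and mt-Tp adjoin with no base between them and face each other from opposite strands, and their whole sequences are given with that of mt-Tw, since mt-Tw and mt-Tt had the most counts on their own strand among the tRNA genes and mt-Tp the most on the opposite strand. They lie at chrM:15289-15355 (plus), chrM:15356-15422 (minus) and chrM:4950-5016 (plus) and come from GENCODE M21. Lower case is kept throughout, as no part is marked.
mt-Tt: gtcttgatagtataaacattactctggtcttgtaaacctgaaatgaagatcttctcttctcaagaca
mt-Tp: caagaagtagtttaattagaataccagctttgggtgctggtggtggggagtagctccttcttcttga
mt-Tw: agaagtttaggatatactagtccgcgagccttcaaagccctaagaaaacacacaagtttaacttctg
Both mt-Tw and mt-Tt had 0 counts in every library when strand was not used. The levels of tRNA genes also depended on the counting method: RSEM lists mt-Tt at 0 in every library, against a mean of 118 unique counts, and gave mt-Tw a mean of 3.25 against 148.5. mt-Tw starts within the last bases of mt-Nd2, and mt-Tt directly follows mt-Cytb.

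**Figure D2:**
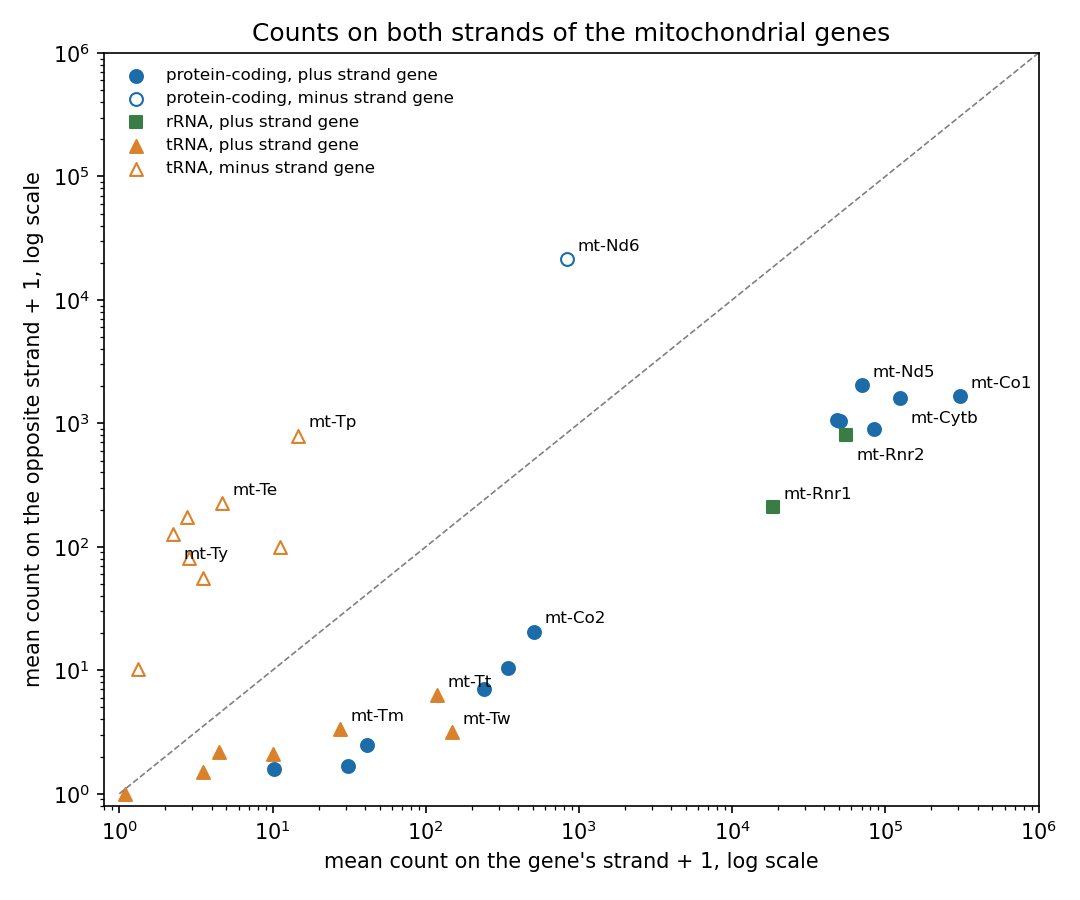
Mean counts over 12 libraries on a gene's own strand and on the opposite strand, each plus 1, on log axes, with filled points for plus-strand and open points for minus-strand genes. The open points, mt-Nd6 and the 8 minus-strand tRNA genes, lie above the dashed line of equal counts, and the plus-strand genes with counts lie on or below it.

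The main question was whether the members change with circadian time. A low-count filter left 21 members for testing (all 13 protein-coding, both rRNA and 6 tRNA genes: mt-Tl1, mt-Tq, mt-Tm, mt-Tw, mt-Tt and mt-Tp) among 16396 genes. In the fit of a 24 h wave, 0 of the 21 passed edgeR's quasi-likelihood test after Benjamini-Hochberg adjustment, and 0% of all tested genes did. The smallest adjusted p of a member was 0.238, for mt-Nd1, mt-Nd2, mt-Nd5 and mt-Tt. At an unadjusted p under 0.05 stood 6 members (mt-Nd1, mt-Nd2, mt-Nd4, mt-Nd5, mt-Cytb and mt-Tt), against 13.3% of all tested genes. DESeq2's likelihood ratio test passed 4 members, mt-Nd1, mt-Nd2, mt-Nd5 and mt-Tt, against 1.5% of all genes, and limma on log2 TPM passed 0 of 26 members tested there, with 11 at an unadjusted p under 0.05, against 8.28% of all genes. The test of any difference among the 6 times passed 0 of 21 members against 0.256% of all genes, with 6 members (mt-Rnr1, mt-Nd1, mt-Nd2, mt-Nd5, mt-Tw and mt-Tt) and 12.7% of all genes at an unadjusted p under 0.05. There DESeq2 passed 3 (mt-Nd1, mt-Nd2 and mt-Nd5, against 3.15% of all genes) and limma 0 of 26, with 5 at an unadjusted p under 0.05, against 9.42% of all genes. Both shares given for limma are of unadjusted p. Its share of all genes after adjustment is not given here, so its counts of 0 say nothing particular to the members.

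These counts of 0 depended on the choice of genes and libraries. With no count filter edgeR passed 4 members for the wave, the same 4 as DESeq2, against 1.08% of all genes, and 9 for the times, against 7.17%. Without both CT2 libraries mt-Nd2 passed for the wave (2.65% of all genes) and mt-Rnr1, mt-Nd2 and mt-Tw for the times (3.24%). Those 3 also passed for the times without CT2 of day 1 alone (3.91%). Without CT2 of day 2 alone 9 members passed for the times, both rRNA genes, mt-Nd1, mt-Nd2, mt-Co1, mt-Nd4, mt-Nd5, mt-Cytb and mt-Tw, against 10.2% of all genes. CT2 of day 1 then stands alone for its time and is assumed to vary like the others.

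mt-Nd2, a complex I subunit (chrM:3914-4951), had the smallest p. On day 1 it stood at 2196, 1857, 1619, 1630, 1922 and 1918 CPM at CT2, 6, 10, 14, 18 and 22. On day 2 it stood at 2052, 1705, 1563, 1710, 1927 and 1894 CPM. CT2 was the highest and CT10 the lowest time on each day. The wave fit gave an amplitude (how far the peak lies above the mean, in log2 units) of 0.18 ± 0.04 (SE), peaking at 23.5 h. That is 1.28-fold from trough to peak. edgeR gave an unadjusted p of 0.000865 and an adjusted p of 0.238.

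mt-Nd1, another subunit of complex I (chrM:2751-3707), was also low at CT10 and CT14. On day 1 it stood at 3771, 3282, 2732, 2628, 3013 and 3127 CPM in the order of the times, and on day 2 at 3272, 2868, 2666, 2761, 3012 and 3094 CPM. All 4 libraries of CT10 and CT14 lay below the other 8, with 2761 CPM as the highest of the 4 and 2868 as the lowest of the 8. The amplitude was 0.18 ± 0.04, peaking at 0.87 h, and edgeR's adjusted p was 0.238.

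mt-Nd5, also of complex I, was lowest later. Its CT14 libraries stood at 2013 and 2144 CPM, below the 10 others, which began at 2351 CPM (CT18 of day 1) and ended at 3288 CPM (CT2 of day 1). Its CT10 libraries, 2667 and 2427 CPM, overlapped those of CT6, 2662 and 2515 CPM. The amplitude was 0.20 ± 0.05 with a peak at 2.52 h, and edgeR's adjusted p was 0.238. mt-Cytb was lowest in the CT14 libraries too, at 3960 and 4231 CPM, with 4258 CPM as the next library. Its fall was the smaller one, so the ratio of mt-Cytb to mt-Nd5 counts was 1.97 in both CT14 libraries and 1.67 to 1.81 in the other 10. This ratio was chosen after the values were seen and was not tested.

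**Figure D3:**
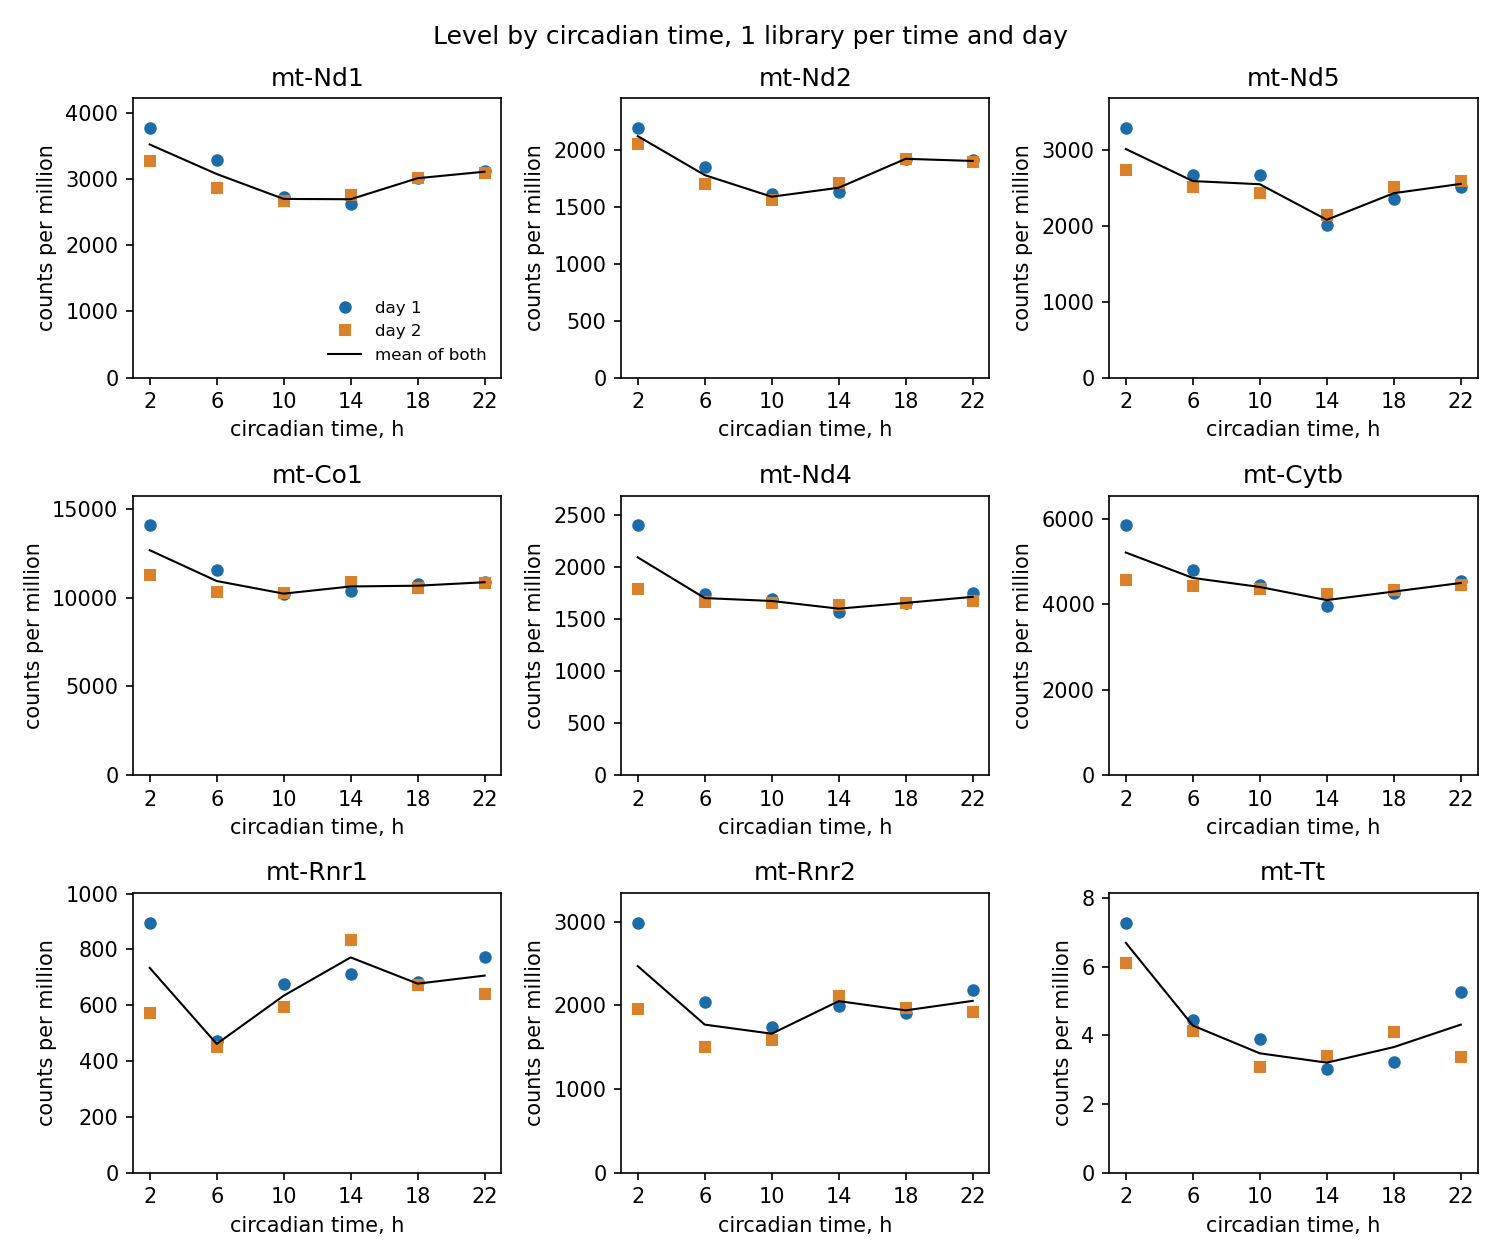
Level in CPM by circadian time for 9 members, with circles for day 1, squares for day 2 and a line through the mean of both; every axis starts at 0. The CT2 library of day 1 is the highest in each panel, and mt-Nd1, mt-Nd2 and mt-Nd5 fall towards CT10 or CT14 and are higher again by CT22 on both days.

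1 library, CT2 of day 1, was the highest of the 12 for 8 of the 13 protein-coding genes and for both rRNA genes. The share of all tested genes that were highest there was not counted, and the CT2 pair differed most over all genes. Whether this is particular to the members is thus not known. For mt-Co1 it stood at 14073 CPM and the next library at 11534 CPM, for mt-Nd4 at 2397 against 1784 CPM, and for mt-Cytb at 5842 against 4807 CPM. Without it the amplitude of mt-Co1 went from 0.11 to 0.05, that of mt-Nd4 from 0.14 to 0.06 and that of mt-Cytb from 0.14 to 0.08. Those of mt-Nd1, mt-Nd2 and mt-Nd5 went to 0.14, 0.16 and 0.15. The summed monocyte and macrophage markers were 1788 CPM in CT2 of day 1 and 865 CPM in CT2 of day 2, but higher still at CT22, 1839 and 2208 CPM. The B cell (272 against 149 CPM), dendritic cell (619 against 368) and NK cell sums (145 against 65.5) were also higher in CT2 of day 1 than of day 2. The CD8 T cell (4479 against 4658) and erythroid sums (1.00 against 1.80) were lower there. The share of multimapping reads ran from 8.46% to 9.63% with CT2 of day 1 the highest. Their part in the result was not tested.

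The fitted peaks lay close together. In unique counts 12 of the 13 protein-coding genes peaked between 21 and 3 h, against 24.6% of all tested genes, a window chosen after the values were seen. Without CT2 of day 1 it was 10 of 13, against 21.1% of all, with mt-Co2 at 19.9 h and mt-Cytb at 3.01 h also outside. With all libraries the exception was mt-Nd4l at 19.6 h, a gene with only 20 to 40 counts per library. The highest mean fell at CT2 for 9 of the 13 genes (23.3% of all tested genes), or for 8 (24.9% of all) where CT2 was its day 2 library alone, and the lowest mean at CT10 for 6 and at CT14 for 6 (19.9% and 20.1% of all). Amplitudes ran from 0.11 to 0.56 with a median of 0.14, against a median of 0.10 over all tested genes. The 13 genes share libraries and scaling and so are not independent of each other.

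For the genes inside the copied block the sum of RSEM counts over member and copy gave far more reads, an alternative chosen after the data were seen. In that fit all 13 genes peaked between 21 and 3 h, against 25.8% of the genes tested, with amplitudes from 0.10 to 0.38. 11 of 13 had an unadjusted p under 0.05 in edgeR, against 13.3% of all genes tested, and 0 passed after adjustment. The share of all genes that passed after adjustment in this fit is not given here. Without CT2 of day 1, 12 peaked in that window (21.01% of the genes tested) and 10 had such a p (15.3%), and 0 passed for the wave. For the times 3 members then passed, against 2.96% of all, mt-Rnr1, mt-Nd2 and mt-Atp8. With all libraries mt-Nd4l moved to a peak of 0.17 h, at an amplitude of 0.17 ± 0.04, and mt-Nd4 from 2.05 to 0.18 h. mt-Nd3 had 0.23 ± 0.06 at 0.51 h and mt-Co2 0.10 ± 0.03 at 0.36 h. mt-Co1 and mt-Nd6 were the genes with a p above 0.05. Across the 13 genes the fold from trough to peak was 1.15 to 1.69.

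**Figure D4:**
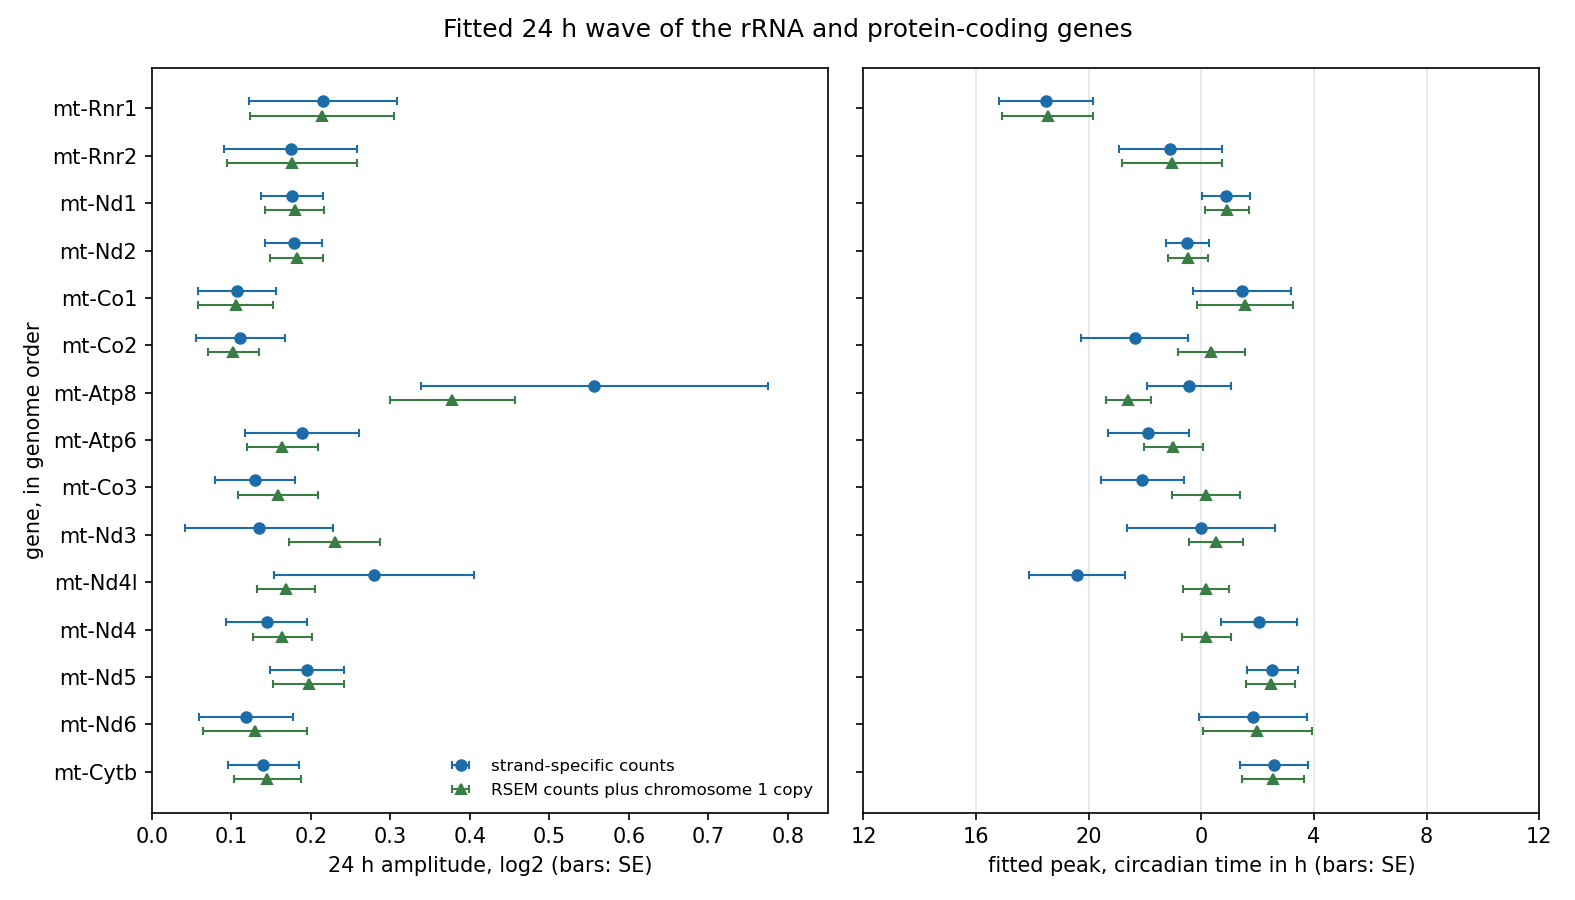
Fitted 24 h amplitude on the log2 scale (left) and peak time in h (right) of the 15 rRNA and protein-coding genes, from unique counts and from RSEM counts with the chromosome 1 copy added; bars are standard errors. Peaks of the 13 protein-coding genes gather around CT0, from 19.6 to 2.58 h by unique counts and from 21.4 to 2.56 h with the copy, and mt-Rnr1 lies apart at 18.5 h.

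mt-Atp8, an ATP synthase subunit, had the largest amplitude among the protein-coding genes, 0.56 ± 0.22 in unique counts and 0.38 ± 0.08 in the RSEM counts, where its adjusted edgeR p was 0.244. By RSEM it stood at 328 and 337 CPM at CT10, its lowest 2 libraries, and at 591 and 666 CPM at CT22. CT2 of day 1, the highest library for most members, was among its low ones at 437 CPM. The fitted peak was at 21.4 h. Its RSEM counts rest on few unique reads.

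On the TPM scale with the copies added, CT2 of day 1 was the highest library for 3 of the 13 genes. In CPM it was the highest for 8 by unique counts and for 10 by RSEM counts with the copies added. In TPM the 4 libraries of CT10 and CT14 lay below the 8 others for 5 of the 13 genes, mt-Nd1, mt-Nd2, mt-Co2, mt-Nd3 and mt-Nd4, against 0.378% of all tested genes. In CPM of unique counts this held for 1 of 13, mt-Nd1, against 0.348% of all. The split of times was chosen after the values were seen. For mt-Nd2 the 4 libraries ran from 2113 to 2258 TPM and the 8 others from 2345 to 2792 TPM. For mt-Co2 they ran from 11531 to 12161 TPM against 12211 to 13279 TPM, a gap smaller than the spread within either set. CT10 of day 1 and of day 2 was the lowest library for 5 genes each. For these counts of highest and lowest libraries the share of all tested genes was not counted. The summed monocyte and macrophage markers were 841 and 1183 CPM at CT10 and 1113 and 1379 CPM at CT14, against 865 to 2208 CPM in the 8 others, among which CT2 of day 2 (865 CPM) and CT6 of day 1 (1260 CPM) lay within the range of those 4. The dendritic cell markers were 390 and 667 CPM at CT10 and 712 and 638 CPM at CT14, against 368 to 719 CPM in the 8 others, and the NK cell markers were 58.5 to 115 CPM in the 4 libraries, against 65.5 to 165 CPM. Their part in the result was not tested.

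**Figure D5:**
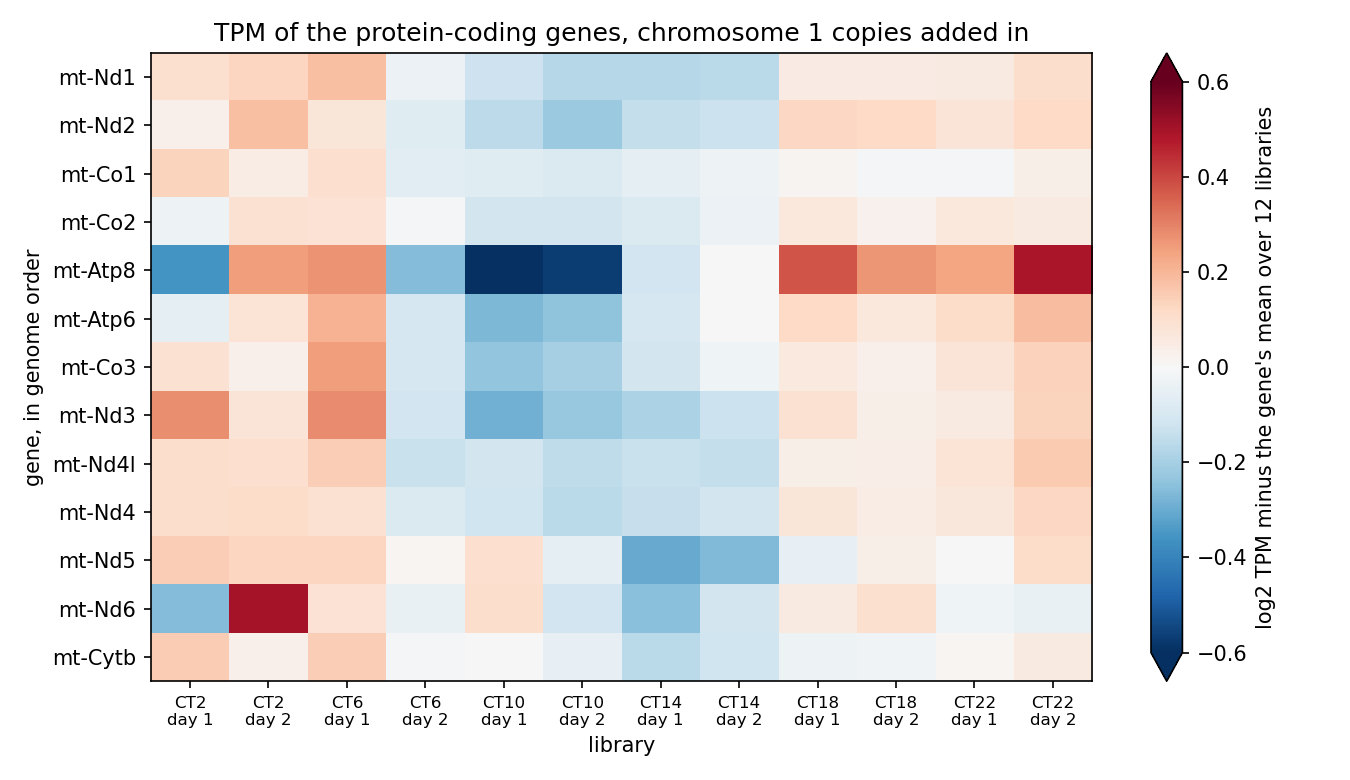
Heat map of log2 TPM of the 13 protein-coding genes minus each gene's mean over 12 libraries, with the chromosome 1 copies added in; columns are libraries ordered by circadian time and day, red is above and blue below the mean. The 4 columns of CT10 and CT14 are blue for most genes, deepest for mt-Atp8 at CT10, while mt-Nd5 at CT10 of day 1 and mt-Nd6 and mt-Atp8 at CT2 of day 1 depart from their columns.

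mt-Nd6, the minus-strand gene, was highest in CT2 of day 2, at 40.9 CPM, with 31.4 CPM as the next library. CT2 of day 1 stood at 29.8 CPM, inside the range of the other 10, 25.3 to 31.4 CPM. The opposite-strand share over all genes was also highest in CT2 of day 2, at 6.73%, and lowest in CT2 of day 1, at 5.42%, and its part in the level of mt-Nd6 was not tested. The fitted amplitude of 0.12 ± 0.06 went to 0.03 without CT2 of day 2.

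By their means over both days mt-Rnr1 was lowest at CT6 and mt-Rnr2 at CT10. mt-Rnr1, the small ribosomal subunit RNA (chrM:70-1024), stood at 895, 473, 676, 711, 683 and 771 CPM on day 1 in the order of the times and at 573, 450, 592, 832, 671 and 641 CPM on day 2. Both CT6 libraries were the lowest, below the 10 others. The difference among times had an unadjusted edgeR p of 0.0193 and an adjusted p of 0.287. The wave fit gave 0.22 ± 0.09, peaking at 18.5 h, and 0.30 at 16.8 h without CT2 of day 1. mt-Rnr2, the large subunit RNA (chrM:1094-2675), was lowest in CT6 of day 2, at 1500 CPM, and highest in CT2 of day 1, at 2988 CPM, and its mean was highest at CT2, 2471 CPM, and lowest at CT10, 1662 CPM. Its amplitude was 0.17 ± 0.08 at 22.9 h, within the window where most mRNAs peaked, and 0.13 at 19.9 h without CT2 of day 1. Differences in timing between rRNA and mRNA genes were not tested.

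The rRNAs also moved against each other. The ratio of mt-Rnr2 to mt-Rnr1 counts was 3.34 and 3.41 at CT2 and 4.32 and 3.33 at CT6. It was 2.57 and 2.68 at CT10, 2.80 and 2.54 at CT14, 2.81 and 2.93 at CT18 and 2.84 and 2.99 at CT22. The 4 libraries of CT2 and CT6 thus lay above the 8 later ones, a split seen in the values and not tested. The genes are separated only by mt-Tv, the tRNA for valine, which had 0 to 5 counts.

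Among the tRNA genes mt-Tt changed most in the wave fit. It stood at 7.28 and 6.12 CPM at CT2, above all 10 other libraries, and at 3.02 and 3.40 CPM at CT14. CT22 of day 1 was the next highest at 5.26 CPM. The amplitude was 0.46 ± 0.10 with a peak at 1.80 h, or 1.89-fold from trough to peak, and edgeR's adjusted p was 0.238. Without CT2 of day 1 the amplitude was 0.37 at 1.77 h. mt-Tw had another pattern. Its CT10 libraries were the lowest, 3.40 and 2.74 CPM against 4.50 to 6.69 CPM in the others, and edgeR gave an adjusted p of 0.205 for the difference among times. Without strand both genes had 0 counts, and RSEM gave mt-Tt 0 in every library and mt-Tw a mean of 3.25. Both patterns therefore rest on the counts on the gene's own strand alone.

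Between the days no member passed. Of the 21, 0 had an adjusted p under 0.05 in edgeR (0% of all genes) and 0 an unadjusted one (1.82% of all genes), and DESeq2 passed 0, with 1 unadjusted (0.939% of all genes). The median difference of day 2 minus day 1 was -0.04 log2 over the 13 protein-coding genes, against 0.001 over all tested genes. Of the 13, 10 were lower on day 2, as were 49.4% of all tested genes. The wave itself did not differ detectably between days, with 0 of 21 members after adjustment (0% of all genes) and 1, mt-Rnr2, at an unadjusted p of 0.0489 (4.44% of all genes). DESeq2 passed 0 there as well, with 2 unadjusted (3.46% of all genes). The DESeq2 shares for the days are of unadjusted p, and those after adjustment are not given here.

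A list of 59 nuclear genes was set beside the members. Of these, 7 are regulators of mitochondrial biogenesis, and the rest replicate, transcribe, process or degrade mitochondrial nucleic acids. All 59 were tested. None passed the wave test, the test of times or the day test in edgeR, and at an unadjusted p under 0.05 stood 5, 1 and 0, against 13.3%, 12.7% and 1.82% of all genes. DESeq2 passed 0 in each of these tests, against 1.5% of all genes for the wave and 3.15% for the times, with no share given for the days. The median amplitude was 0.07, against 0.14 for the protein-coding members and 0.10 over all genes. Tfam, which packages mitochondrial DNA and starts its transcription, stood at 74.2 ± 2.193 CPM (SD, n = 12) with a range of 69.8 to 77.9 CPM. Polrmt, the mitochondrial RNA polymerase, stood at 37.0 ± 3.06 CPM and Twnk, the replicative helicase, at 24.6 ± 1.90 CPM. Lrpprc and Slirp, partners that keep mitochondrial mRNAs stable, stood at 107 ± 3.58 and 21.1 ± 2.63 CPM.

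The 4 genes of the list with the smallest p in the wave test peaked at different times. Pnpt1, a nuclease that degrades mitochondrial RNA, had an amplitude of 0.09 ± 0.03 at 21.2 h and an adjusted edgeR p of 0.259. Fastkd1, of a family of mitochondrial RNA-binding proteins, had 0.14 ± 0.04 at 15.5 h. Pus1, a pseudouridine synthase for tRNA, had 0.10 ± 0.03 at 16.5 h, and Primpol, a primase and polymerase, 0.10 ± 0.03 at 3.77 h.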

How the data were processed

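Polyadenylated RNA of CD8+ T cells was measured in 12 libraries, 1 per circadian time and day. RNA was extracted with TRIzol and RNeasy and made into libraries with the KAPA HyperPrep polyA kit, per the labels' protocols. Reads had been handled with Trimmomatic 0.35, STAR 2.5.1b, RSEM 1.2.28 and bcl2fastq 2.19 on GRCm38, per the submitters' processing notes. The annotation is not given in the sources used here. Of the 50600 gene identifiers, 50376 matched GENCODE M21, whose symbols, coordinates and transcripts were used, and 45737 matched with the same version.

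The authors deposited read counts per gene in 3 strand columns, not normalised, and column 4 was used. Rows that name no gene held 29.3% to 31.2% of the reads and were left out. The authors also deposited RSEM expected counts, which were rounded for tests, and TPM. FPKM was not used.

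Counts were tested with edgeR 4.0.16 (R 4.3.3) on all genes that filterByExpr kept, with TMM scaling, quasi-likelihood F tests and Benjamini-Hochberg adjustment at 0.05. The 24 h test joined a cosine and a sine, the test of times used time as a factor, and the day test added the day to the wave. DESeq2 1.42.0, limma 3.58.1 on log2(TPM + 0.5) with genes of at least 0.5 TPM in 2 libraries, other scalings and filters, strand left out, RSEM counts, the day as a block and left-out libraries were alternatives. The tests were tested on simulated data. CPM is counts scaled with the TMM factors.

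Shared sequence was counted in windows of 50 bases between a member and other GENCODE M21 transcripts, in either orientation. The replicate number in the labels is the day, so it pairs libraries of a day. Over 10153 genes with at least 5 CPM, deviations of day 2 from day 1 correlated between times from -0.61 to 0.35 (median 0.09), with 6 of 15 pairs over 0.1.

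Every member could be named, tRNA genes only where tested or by count otherwise, and of the nuclear copies the 3 with the highest mean count. Beyond this rule mt-Te and mt-Tv, which were not tested, were named with their counts. From the machinery list the rule took Tfam, Polrmt, Twnk, Lrpprc, Slirp, passing genes and the 4 smallest p. Members and lists were chosen with earlier results of these data known.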

Additional observations from a re-analysis of the deposited data

How the results depend on the processing

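Of 484 single-gene amplitudes under the alternatives, 466 kept their direction and side of the threshold, 9 passed it and 9 moved their peak by more than 6 h. The last were mt-Tq (0.44 without strand, 0.33 without both CT14 libraries, 0.98 in limma), mt-Tm (0.07 without CT18 of day 2 and 0.016 to 0.15 over all single libraries left out, 0.15 without both CT14 libraries, 2.51 in limma), mt-Nd4l (0.16 in RSEM counts, 0.13 in limma) and mt-Tp (3.30 in limma). The cause was not tested. For a 24 h wave, 4 members passed in DESeq2 and 4 without a count filter (the same genes), and 1 passed without both CT2 libraries. For a difference among times, 3 passed in DESeq2 and 9 without a filter, and 3 without both CT2 libraries. Leaving out 1 library gave 0 to 9 members for the times. The 9 came without CT2 of day 2, and 3 came without CT2 of day 1. With RSEM counts summed with the copies, leaving out that library also gave 3. For the machinery list the times gave 1, Dna2, without a filter (7.17% of all genes), and leaving out 1 library gave 0 to 3, the 3 being Hsd17b10, Fastkd1 and Trmt10c without CT2 of day 2 (10.2%). The protein-coding share of counts was 3.49% in RSEM expected counts.

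With the day as a replicate block, the pairing the labels give, 0 members passed either test, and no other call of a member changed. Tests for members under 10 counts per library have little depth. Among the copied genes, unique counts were 20 to 40 per library for mt-Nd4l and 31 to 46 for mt-Nd3. They were 171 to 281 for mt-Atp6, 271 to 435 for mt-Co3 and 403 to 614 for mt-Co2. For mt-Nd4 and mt-Co1 they were at least 40966 and 253976.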
